A study of Mus musculus with 6 samples.

Results

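The DNA replication machinery was followed through 48 genes of the deposited expression table, chosen by symbol for their roles in licensing origins, unwinding DNA, synthesising it, loading the sliding clamp, supplying nucleotides and assembling chromatin behind the fork. They were chosen with earlier results of these data known. All 48 symbols were found among the 29955 genes of the table, and all 48 had enough reads to be tested. The study sequenced RNA from mouse embryonic fibroblasts (MEFs), connective tissue cells grown from mouse embryos, with 3 libraries labelled Rnf40+/+ and 3 labelled Rnf40-/-, all at passage 3. RNF40 is, with RNF20, the E3 ligase that adds monoubiquitin to histone H2B, a mark (H2Bub1) found over transcribed genes. The comparison asks which genes depend on it for their expression.

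Chromosomal DNA is copied in S phase. In G1 the origin recognition complex (ORC), CDC6 and CDT1 load the MCM2-7 helicase onto origins, which is called licensing, and geminin blocks loading once S phase has begun. The DBF4-dependent kinase CDC7 then fires origins, GINS and CDC45 complete the helicase, polymerase alpha-primase starts each strand, and polymerases delta and epsilon, held by the ring PCNA that the clamp loader RFC puts on DNA, extend it. Many of these genes are transcribed mainly towards S phase in dividing cells, and E2F factors are known to control a large share of them.

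The Rnf40-/- MEFs carried loxP sites around exons 3 and 4 of Rnf40 and a tamoxifen-inducible Cre (CreERT2) in the ubiquitously expressed Rosa26 locus, and were given 250 nM 4-hydroxytamoxifen (4-OHT) for 5 days and then 3 days without it. The Rnf40+/+ MEFs are labelled by that genotype alone. Whether they carried the Cre or received 4-OHT before RNA was taken is not stated in the sources used here, so deletion, Cre and 4-OHT cannot be told apart. The labels do not say whether the 3 libraries of a genotype come from separate embryos or cultures, and the p-values therefore measure the spread between these libraries, which may be technical. Cultures were measured in bulk, so that fewer cells in S phase and less of a transcript in each such cell cannot be told apart.

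Libraries held between 17053436 and 26344170 reads on genes, and the value given for each gene is its normalized count, the reads divided by a size factor of the library. The fewest reads behind any of the 48 genes in a library was 14. Rnf40 itself, the check of the labels, had normalized counts of 1278, 1195 and 1096 in the Rnf40+/+ and 439, 519 and 487 in the Rnf40-/- libraries, so 40.5% was left. These reads were counted over the whole gene, and exons 3 and 4 alone were not analysed here. Mki67, a marker of dividing cells, had 494, 477 and 581 against 77.5, 62.6 and 74.6, and its part in the results that follow was not tested. Among 10 fibroblast markers 8 were lower in Rnf40-/- MEFs, with summed normalized counts of 376501 to 445402 in Rnf40+/+ and 190160 to 203668 in Rnf40-/- libraries. The 5 macrophage markers summed to 4765 to 8672 against 3069 to 3347, with Lyz2 lower, Ptprc higher and 3 not past the test. Of 4 endothelial markers 3 were higher, with sums of 46.9 to 143 against 173 to 265. The 4 epithelial markers summed to 23.5 to 83.6 against 24.0 to 42.8, and the 4 skeletal muscle markers to 117 to 434 against 27.1 to 43.4, nearly all of it Des, with Myod1 at 0 in all 6 libraries. The upper ends of the endothelial, epithelial and muscle sums in Rnf40+/+ MEFs all came from replicate 1. It had Tek at 115, Krt8 at 58.5 and Des at 431. Replicates 2 and 3 had Tek at 11.2 and 16.0, Krt8 at 1.02 and 9.58, and Des at 126 and 114. Whether cells of other types had a part in the values of the replication genes was not tested. Rnf40+/+ replicate 3 stood somewhat apart from its group (chi-square per gene of 29.0 and 26.3 against the other Rnf40+/+ libraries, which differed from each other by 8.09).

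The start regions of the genes are shown first, since members that move together can share sequence there. RefSeq promoters (assembly GRCm38.p6, 250 bases before to 50 after a start) were at hand for 40 of the 48 genes, with 49 promoters in all. The E2F-type words TTTCGCGC, TTTCCCGC, TTTGGCGC and TTTGCCGC were searched on both strands. At least 1 of them occurred in 15 of the 49 promoters (30.6%), against 2.26% of all 32851 promoters of the same length. That comparison was not limited to the genes tested, and base composition was not matched, so the gap may not be particular to replication genes. A match is a description of the letters and not a measured site. The windows below are those in which a match lay wholly before a listed start, from the member with the largest fall to the member with the highest value in Rnf40-/- MEFs. Capitals mark the match. In Mcm5 and Mcm6 they mark TTTCGCGC on one strand overlapping TTTGGCGC on the other, and a run that reads GCGGGAAA or GCGCCAAA is a match on the strand opposite to the gene.
Mcm5: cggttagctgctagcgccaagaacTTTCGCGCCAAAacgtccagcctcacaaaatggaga
Cdc6: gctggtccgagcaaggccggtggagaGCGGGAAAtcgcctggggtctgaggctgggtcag
Mcm6: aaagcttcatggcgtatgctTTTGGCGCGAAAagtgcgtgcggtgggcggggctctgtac
Gins3: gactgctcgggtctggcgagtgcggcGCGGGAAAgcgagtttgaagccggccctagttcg
Rfc3: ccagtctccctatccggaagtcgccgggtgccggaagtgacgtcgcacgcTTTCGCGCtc
Mcm7: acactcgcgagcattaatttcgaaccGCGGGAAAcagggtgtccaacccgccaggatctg
Pola1: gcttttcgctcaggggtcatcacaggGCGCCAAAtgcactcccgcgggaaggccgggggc
Orc3: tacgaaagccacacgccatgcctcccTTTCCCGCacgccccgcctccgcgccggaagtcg
Tk1, without a match: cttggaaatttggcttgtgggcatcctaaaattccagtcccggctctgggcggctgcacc

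Each is given 5′ to 3′ on the strand of its gene. They lie at chr8:75109332-75109391 (plus strand) for Mcm5, chr11:98907987-98908046 (plus) for Cdc6, chr1:128359776-128359835 (minus) for Mcm6, chr8:95633492-95633551 (plus) for Gins3, chr5:151651209-151651268 (minus) for Rfc3, chr5:138172015-138172074 (minus) for Mcm7, chrX:93632260-93632319 (minus) for Pola1, chr4:34614950-34615009 (minus) for Orc3 and chr11:117826015-117826074 (minus) for Tk1. The Tk1 window, the 60 bases just before its start, is printed because Tk1 had the largest fall of the 48 genes and none of the 4 words in its promoter.

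Replication genes, a list chosen with earlier results of these data known, were mostly lower in Rnf40-/- MEFs. At an adjusted p under 0.05, 39 of the 48 genes were lower (limma on log2(normalized count + 1), Benjamini-Hochberg over the 16378 genes tested), where 24.1% of all genes tested were lower by the same rule. The exception in the other direction was Orc4, while 23.3% of all genes tested were higher. The remaining 8, namely Pola1, Rpa3, Rfc2, Orc2, Rfc1, Tyms, Orc5 and Orc3, did not pass. The median log2 fold change over the 48 was -1.04 with quartiles of -1.45 and -0.47, against a median of -0.0035 over all genes tested, and the median gene kept 48.7% of its Rnf40+/+ level. By the study's cutoffs for a downregulated gene (mean above 15, p under 0.05 and a log2 fold change below -1), applied here to the p-values and fold changes of limma and not to those of DESeq, 25 of the 48 were lower, against 5.70% of all genes tested.

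The fall was seen in each Rnf40-/- library. For 41 of the 48 genes every Rnf40-/- library lay below every Rnf40+/+ library, as it did for 28.7% of all genes tested, and 6 genes overlapped. Taken over the 48 genes, the median log2 difference from the Rnf40+/+ mean was -0.96, -1.02 and -0.92 in Rnf40-/- replicates 1, 2 and 3, and 0.05, -0.07 and -0.04 in Rnf40+/+ replicates 1, 2 and 3. With any library left out, 38 or 39 genes were lower and the median lay between -1.12 and -0.99. Within a genotype the genes were steady, with a median coefficient of variation of 10.7% in Rnf40+/+ and 8.47% in Rnf40-/- MEFs, although Rnf40+/+ replicate 1 was the highest of its group for 24 of the 48 genes (30.1% of all genes tested). The plot of every member in every library shows how far the roles differed from each other.

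**Figure D1:**
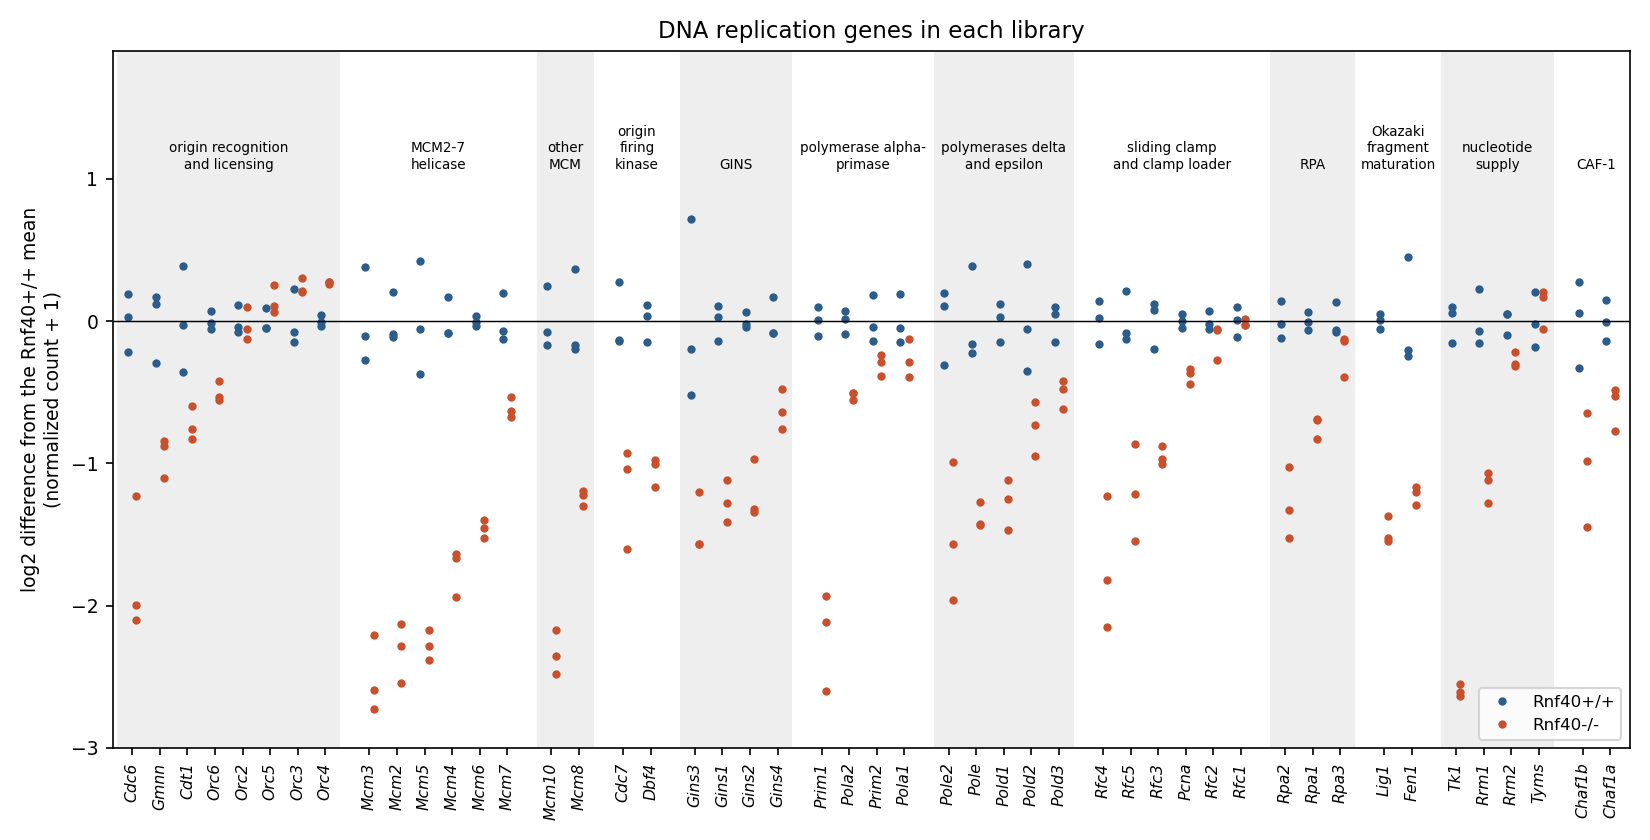
Log2 difference of the normalized count (+ 1) from the Rnf40+/+ mean, for each of 48 replication genes in each library (blue, 3 Rnf40+/+; orange, 3 Rnf40-/-), grouped by role and ordered by fold change. The orange points of the MCM2-7 genes lie entirely below the blue points, while those of Orc2, Orc3, Orc5, Rfc1, Tyms and Pola1 overlap them and those of Orc4 lie above.

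Licensing genes did not move as a block. Cdc6, Cdt1, Gmnn and Orc6 were lower, Orc4 was higher, and Orc2, Orc3 and Orc5 did not pass, so that 4 of 8 were lower and the median log2 fold change was -0.27. Cdc6, the ATPase that helps ORC load the helicase, had normalized counts of 51.4, 61.2 and 68.7 in Rnf40+/+ and 14.3, 25.05 and 13.2 in Rnf40-/- libraries. Every Rnf40-/- value was below every Rnf40+/+ value, and 29.0% of the level was left (log2 fold change -1.78, standard error 0.30, adjusted p = 0.000456 from limma). Orc6, the smallest ORC subunit, kept 70.5%, Cdt1 59.1% and Gmnn, which encodes the CDT1 inhibitor geminin, 51.3%, with log2 fold changes of -0.50, -0.73 and -0.94.

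The other ORC subunits in the list, Orc2 to Orc5, were not lower. Orc1, a further ORC subunit counted with the other replication factors below, was lower. It had 22.7, 22.4 and 27.2 in Rnf40+/+ and 6.12, 5.22 and 7.55 in Rnf40-/- libraries, without overlap. Of its level 26.1% was left (log2 fold change -1.79, standard error 0.37, adjusted p = 0.00198 from limma), on 6, 5 and 8 reads in the Rnf40-/- libraries. Orc2 had 609, 678 and 594 in Rnf40+/+ and 574, 601 and 672 in Rnf40-/- libraries, which overlapped (log2 fold change -0.03, adjusted p = 0.829 from limma). Orc4 had 799, 841 and 816 against 991, 979 and 989.5. It was higher in every Rnf40-/- library, by 0.27 on the log2 scale (standard error 0.07, adjusted p = 0.00683). Orc3 had 891, 1099 and 851 against 1092, 1082 and 1162, and Rnf40+/+ replicate 2 lay within the Rnf40-/- range. Its log2 fold change was 0.24 (adjusted p = 0.0553 from limma), which passed without Rnf40+/+ replicate 2 (0.35, adjusted p = 0.00513), with TMM normalization (adjusted p = 0.0425) and with edgeR (adjusted p = 0.0460). Orc5 had 445, 403 and 404 against 436, 498 and 449, overlapping at 0.14 on the log2 scale (adjusted p = 0.234). A pseudogene on the same strand covers 12.5% of the exon bases of Orc5, and Nif3l1 on the opposite strand 12.03% of those of Orc2, where reads may not be told apart.

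All 6 genes of the MCM2-7 helicase, the ring that unwinds the template, were lower, with a median log2 fold change of -2.01. Mcm3 (mm9, chromosome 1, 20793055 to 20810359, minus strand, 17 exons) fell most, from 568, 362 and 406 in Rnf40+/+ to 65.3, 93.9 and 71.8 in Rnf40-/- libraries. The highest Rnf40-/- value was far below the lowest Rnf40+/+ value, and 17.3% was left (log2 fold change -2.51, standard error 0.19, adjusted p = 7.44e-07 from limma). Mcm2 kept 19.97%, Mcm5 19.9%, Mcm4 29.8% and Mcm6 36.3%. Mcm7 fell least, from 1026, 822 and 851 to 577, 561 and 617.5. It kept 65.1% (log2 fold change -0.61, standard error 0.09, adjusted p = 0.000234), and its groups did not overlap either.

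Because the ring holds its 6 subunits in equal number, their levels per length are of interest side by side. The normalized count per kilobase of annotated exon (GENCODE M1, mm9) was highest for Mcm4 in Rnf40+/+ MEFs, at 251 ± 26.7 (SD, n = 3), and lowest for Mcm5, at 103 ± 29.0. In Rnf40-/- MEFs Mcm7 was highest, at 132 ± 6.53, and Mcm5 lowest, at 20.5 ± 1.52. The highest level was 2.52 ± 0.47 times the lowest in Rnf40+/+ and 6.45 ± 0.18 times in Rnf40-/- libraries (SD, n = 3). The single libraries gave 2.09, 3.03 and 2.43 against 6.39, 6.64 and 6.30, without overlap. With the longest transcript as length the ratios were 2.97 and 9.42, and Mcm7 was the highest in both genotypes.

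**Figure D2:**
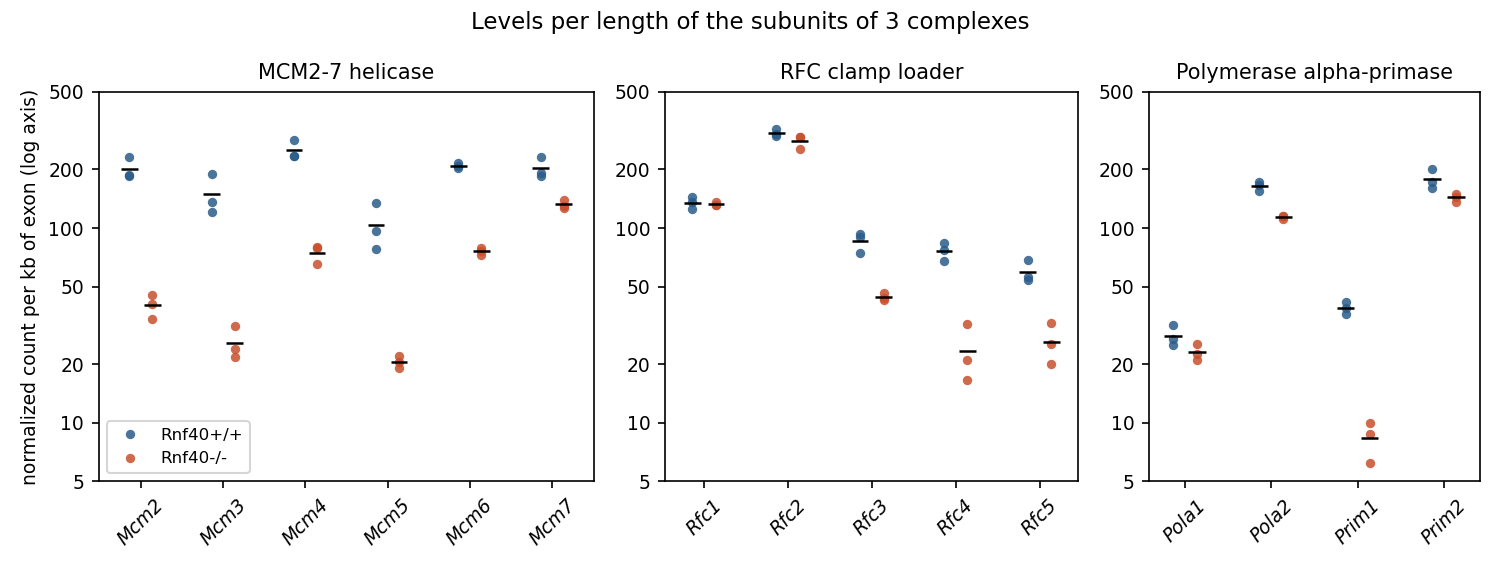
Normalized count per kilobase of exon on a log axis for the subunits of the MCM2-7 helicase, the RFC clamp loader and polymerase alpha-primase, per library (blue, Rnf40+/+; orange, Rnf40-/-; black lines, means of 3). In Rnf40-/- MEFs the MCM2-7 genes range from Mcm5 at 20.5 to Mcm7 at 132, while Rfc1 and Rfc2 sit near their Rnf40+/+ levels.

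Mcm10 and Mcm8 are MCM proteins outside the ring. Mcm10, which helps the helicase start, had 76.4, 102 and 81.5 in Rnf40+/+ and 18.4, 14.6 and 16.1 in Rnf40-/- libraries. No Rnf40-/- library came near the Rnf40+/+ range, and 18.9% was left (log2 fold change -2.33, standard error 0.24, adjusted p = 1.13e-05 from limma). Mcm8, a helicase of homologous recombination, went from 124, 85.7 and 83.8 to 40.8, 38.6 and 41.5 without overlap (log2 fold change -1.24, adjusted p = 0.000511).

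The firing kinase was lower in both of its subunits. Cdc7, the catalytic subunit, had 215, 161 and 160.5 in Rnf40+/+ and 92.8, 85.6 and 57.6 in Rnf40-/- libraries, and Dbf4, its activator, had 577, 608 and 509 against 249.8, 279.7 and 286. Neither gene overlapped between the genotypes, and the log2 fold changes were -1.19 for Cdc7 and -1.05 for Dbf4 (standard errors 0.20 and 0.10, adjusted p = 0.000476 and 7.02e-06 from limma). The log2 ratio of Dbf4 to Cdc7 within a library overlapped between genotypes, with means of 1.66 ± 0.24 and 1.80 ± 0.45 (SD, n = 3 each).

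GINS, a complex of 4 proteins that travels with the helicase, was lower in 4 of 4 genes. Gins3 had the largest fall, from 263, 139 and 111 to 53.0, 53.2 and 68.9. The Rnf40+/+ values were wide, replicate 1 standing far above the others, but the groups did not overlap (log2 fold change -1.44, standard error 0.27, adjusted p = 0.000998 from limma, and -1.09 without that library). Gins4 had the smallest, from 449, 450 and 534 to 280, 342 and 306 (log2 fold change -0.62, adjusted p = 0.000641). Gins1 and Gins2 lay between, at -1.27 and -1.21. Gse1 on the opposite strand covers 67.3% of the exon bases of Gins2, and whether the counting used the strand is not stated, so reads of the 2 genes may not be told apart.

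Polymerase alpha-primase, which lays the RNA-DNA primer, changed unevenly. Prim1, the catalytic primase subunit (mm9, chromosome 10, 127452228 to 127467093, plus strand, 11 exons), had 161, 139.7 and 151 in Rnf40+/+ and 38.7, 24.0 and 34.0 in Rnf40-/- libraries. The groups were far apart and 21.4% was left (log2 fold change -2.21, standard error 0.21, adjusted p = 5.93e-06 from limma). Pola2, the B subunit, was lower by less, at -0.52 (adjusted p = 0.000588). Prim2, the large primase subunit, was at -0.30 (adjusted p = 0.0368), but it no longer passed with DESeq2 (adjusted p = 0.0552), without Rnf40+/+ replicate 2 (-0.21, adjusted p = 0.143), or without Rnf40-/- replicate 1, 2 or 3 (adjusted p = 0.0835, 0.0580 and 0.120). Pola1, the catalytic polymerase subunit, had 279, 237 and 221 against 199.9, 224 and 186, which overlapped (log2 fold change -0.27, adjusted p = 0.110). Per kilobase, the highest of the 4 subunits was 6.61 ± 1.04 times the lowest in Rnf40+/+ and 18.0 ± 5.35 times in Rnf40-/- libraries (SD, n = 3). Prim2 was the highest in both, and the lowest was Pola1 in Rnf40+/+ and Prim1 in Rnf40-/- MEFs. With the longest transcript as length the ratios were 4.53 and 16.1.

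The polymerases that copy the bulk of the genome were lower in 5 of 5 genes among the 48. Further subunits, counted with the other replication factors below, differed. Pold4 had 633, 591 and 609 in Rnf40+/+ and 686, 690 and 691 in Rnf40-/- libraries (log2 fold change 0.17, adjusted p = 0.0781 from limma). Pole3 and Pole4 were lower, at -0.99 and -1.05. Pole2, an accessory subunit of polymerase epsilon, had 52.5, 70.4 and 75.1 in Rnf40+/+ and 21.4, 32.4 and 16.1 in Rnf40-/- libraries, without overlap (log2 fold change -1.50, standard error 0.29, adjusted p = 0.00122 from limma). Pold3, an accessory subunit of polymerase delta, fell least, from 240.04, 209 and 249.2 to 151, 173 and 166 (log2 fold change -0.51, adjusted p = 0.00590). The catalytic subunits Pole and Pold1 kept 37.6% and 41.0%, at -1.38 and -1.28 on the log2 scale, and Pold2 kept 58.3%. Their ratio, Pole to Pold1, overlapped between genotypes.

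The clamp and its loader were lower in 4 of 6 genes, with log2 fold changes from -1.73 to -0.01. Pcna, the ring that tethers polymerases, was the most highly counted gene of the group, and kept 76.8% (log2 fold change -0.38, standard error 0.07, adjusted p = 0.000678 from limma). The annotation holds 2 processed copies, Pcna-ps1 and Pcna-ps2, with which reads could be shared. Rfc4 fell most, from 129, 104 and 118 in Rnf40+/+ to 25.5, 32.4 and 49.1 in Rnf40-/- libraries, without overlap (log2 fold change -1.73, standard error 0.25, adjusted p = 0.000122). Rfc5 and Rfc3, the other small subunits that fell, were at -1.21 and -0.95. Rfc2 did not pass, with 449, 459.9 and 491 against 448, 385 and 447.5, although its groups just failed to touch (log2 fold change -0.13, adjusted p = 0.283). Rfc1, the large subunit, had 813, 866 and 748 against 816, 792 and 791 and overlapped (-0.01, adjusted p = 0.894). The RFC subunits form a pentamer, and the highest level per kilobase, that of Rfc2, was 5.24 ± 0.80 times the lowest in Rnf40+/+ and 13.2 ± 4.30 times in Rnf40-/- libraries (SD, n = 3). With the longest transcript as length these ratios were 4.21 and 10.9. Genes on the opposite strand overlap 12.6% of the exon bases of Rfc4 (Eif4a2) and 10.7% of those of Rfc5 (Wsb2).

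RPA, the heterotrimer that coats single-stranded DNA, was lower in 2 of 3 genes. Rpa2 had 266, 222 and 238 in Rnf40+/+ and 95.8, 83.5 and 118 in Rnf40-/- libraries, well separated (log2 fold change -1.29, standard error 0.16, adjusted p = 3.70e-05 from limma). Rpa1, the large DNA-binding subunit and the most highly counted of the 48 genes in Rnf40+/+ MEFs, was at -0.74. Rpa3 had 245, 248 and 284 against 237, 235 and 196, a small gap that did not pass (log2 fold change -0.22, adjusted p = 0.164).

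Okazaki fragment maturation, the joining of the short pieces of the lagging strand, was lower in both genes. Lig1, the ligase of replication, had 345, 331 and 355 in Rnf40+/+ and 117, 119 and 132 in Rnf40-/- libraries (log2 fold change -1.48, standard error 0.12, adjusted p = 1.21e-06 from limma). Fen1, the flap nuclease, had 459.8, 282 and 291 against 146, 137 and 149 (log2 fold change -1.22, standard error 0.17, adjusted p = 0.000117). No Rnf40-/- value reached the Rnf40+/+ range for either gene. However, Gm10143 on the opposite strand covers 78.8% of the exon bases of Fen1, where reads may not be told apart. A further gene on that strand, 1810006K21Rik, also overlaps exons of Fen1.

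Nucleotide supply held both the largest fall and a gene that did not fall. Tk1, the cytosolic thymidine kinase of S phase (mm9, chromosome 11, 117676840 to 117687406, minus strand), had 315, 272 and 326 in Rnf40+/+ and 48.9, 48.01 and 51.0 in Rnf40-/- libraries. The Rnf40-/- values lay close together, and 16.2% was left (log2 fold change -2.60, standard error 0.15, adjusted p = 9.28e-08 from limma). Tyms, thymidylate synthase, which makes dTMP by the other route, had 831, 635 and 714 against 812, 833 and 696. The groups overlapped (log2 fold change 0.11, standard error 0.11, adjusted p = 0.441). The subunits of ribonucleotide reductase also differed: Rrm1, the large subunit, kept 44.7% (-1.15) and Rrm2, the small subunit of S phase, 82.4% (-0.28, adjusted p = 0.00756).

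CAF-1, which deposits histones H3 and H4 on new DNA, was lower in both genes of the list. Chaf1b had 171, 112 and 147 in Rnf40+/+ and 89.7, 51.1 and 70.8 in Rnf40-/- libraries, and Chaf1a had 560.1, 615 and 687 against 428, 361 and 441. The groups did not overlap for either gene, and the log2 fold changes were -1.03 and -0.60 (standard errors 0.23 and 0.11, adjusted p = 0.00275 and 0.000696 from limma).

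Unequal change within pairs was read from log2 ratios of normalized counts (+ 1) taken inside each library, in which the size factor cancels except for the added 1. Of 10 pairs compared, 5 did not overlap between genotypes. Each of those had an exact two-sided permutation p of 0.1, the smallest that 3 libraries against 3 can give. After Benjamini-Hochberg adjustment over the 10 it was 0.2, so that none could pass. How often other pairs of genes fail to overlap was not counted. The ratios restate the fold changes of the same genes, which were chosen with earlier results of these data known. The ratio of Rrm2 to Rrm1 was -0.33, -0.03 and -0.09 in Rnf40+/+ and 0.82, 0.75 and 0.60 in Rnf40-/- libraries, a difference of 0.88. Rrm2b encodes the small reductase subunit used outside S phase and was itself higher in Rnf40-/- MEFs. The ratio of Rrm2 to Rrm2b was 1.19 ± 0.07 in Rnf40+/+ and 0.39 ± 0.05 in Rnf40-/- libraries. Tk1 against the mitochondrial kinase Tk2 moved most, from -0.89 ± 0.16 to -3.39 ± 0.06. The ratio of Lig1 to Lig3, a ligase of repair and mitochondria, went from -1.13 ± 0.09 to -2.35 ± 0.13, and that of Pcna to Rfc1 from 0.81 ± 0.16 to 0.45 ± 0.04 (SD, n = 3 each). The other pairs, Gmnn to Cdt1, Dbf4 to Cdc7, Pole to Pold1, Chaf1a to Chaf1b and Mcm2 to Mcm3, overlapped, with exact p between 0.2 and 0.7.

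**Figure D3:**
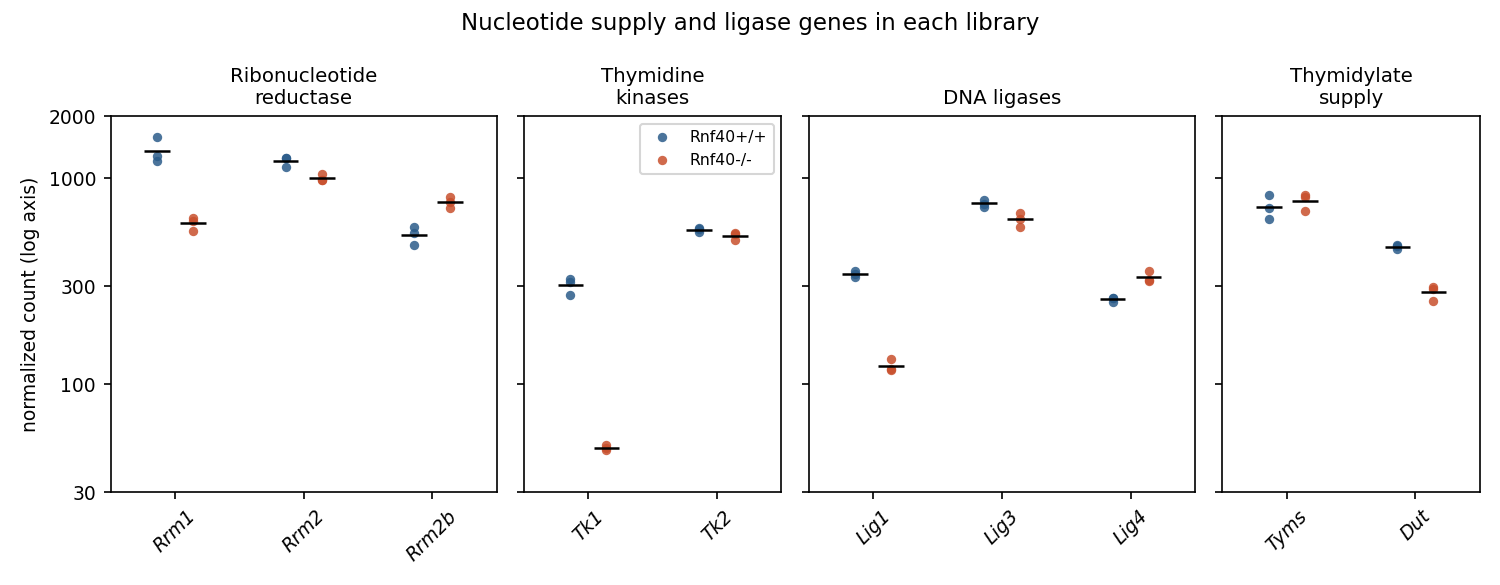
Normalized count on a log axis for genes of ribonucleotide reduction, thymidine salvage, ligation and thymidylate supply (Tyms and Dut), per library (blue, Rnf40+/+; orange, Rnf40-/-; black lines, means of 3). Tk1 and Lig1 drop in all 3 Rnf40-/- libraries, Lig3 drops by less, Tk2 and Tyms did not pass the test, and Rrm2b and Lig4 rise.

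Replication factors outside the 48 were also mostly lower, in a list chosen, like the 48, with earlier results of these data known. Of 36 further factors (firing factors, fork protection, clamp unloading, RNase H2, topoisomerases, nucleotide enzymes and histone chaperones), all tested, 27 were lower, 2 higher and 7 did not pass, with a median log2 fold change of -0.85, where 24.1% of all genes tested were lower and 23.3% higher. Without Rnf40+/+ replicate 2, Rnf40+/+ replicate 3, Rnf40-/- replicate 1 or Rnf40-/- replicate 2, 1 was higher. The lowest were Top2a, the topoisomerase that untangles sister chromatids, at -3.20 and Clspn, which encodes the checkpoint mediator claspin, at -2.95. Top2a had 1456, 988 and 993 in Rnf40+/+ and 118, 136 and 112 in Rnf40-/- libraries. The highest were Mcmbp, an MCM-binding protein, at 0.49, and Dna2, a nuclease-helicase, at 0.40, of which Dna2 did not pass (adjusted p = 0.139 from limma). The second gene that was higher was Top1, at 0.19 (adjusted p = 0.0423). Top1, and Dut (-0.73), the dUTPase that keeps uracil out of DNA, are named after their values were seen. The same holds for Orc1, Pold4, Pole3 and Pole4 above.

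Non-replicative counterparts, the polymerases, ligases and nucleotide enzymes of repair, lesion bypass and mitochondria, were also measured. That list too was chosen with earlier results of these data known. Of 18 such genes, all tested, 3 were lower, 3 higher and 12 did not pass, with a median log2 fold change of 0.02. These counts are not set apart from the 24.1% lower and 23.3% higher among all genes tested, and 1 was lower without Rnf40+/+ replicate 1, Rnf40-/- replicate 1 or Rnf40-/- replicate 3. The lowest were Polg2, a subunit of the mitochondrial polymerase, at -0.82, which did not pass (adjusted p = 0.0712 from limma), and Dck, deoxycytidine kinase, at -0.58. The highest were Rrm2b at 0.52 and Polh, the polymerase that bypasses ultraviolet lesions, at 0.44. Primpol (-0.45) and Lig3 (-0.26) were also lower and Lig4 (0.35) also higher, and these 3 are named after their values were seen. The difference between the lists is given by these counts and medians and was not tested.

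**Figure D4:**
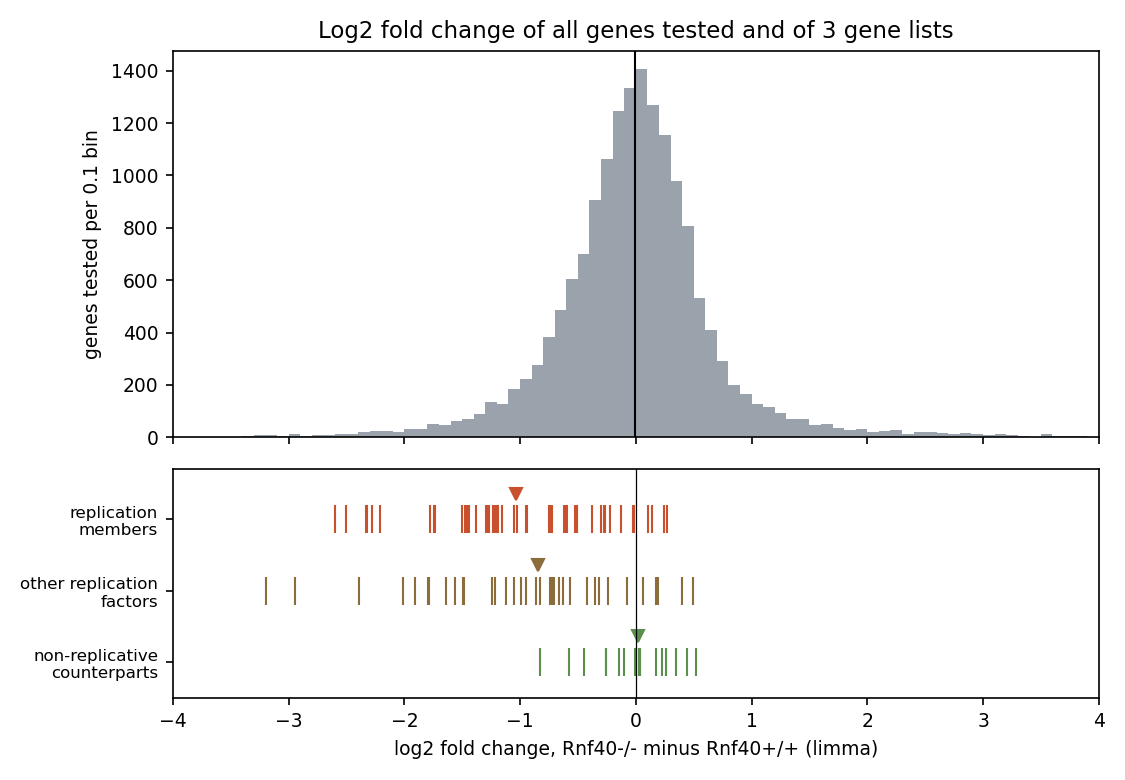
Top, histogram of the log2 fold change (Rnf40-/- minus Rnf40+/+, limma) of the genes tested in bins of 0.1, with their median as a line (20 genes beyond 4 in either direction are not drawn). Bottom, the same quantity for each of 48 replication members, 36 other replication factors and 18 non-replicative counterparts, with list medians of -1.04, -0.85 and 0.02 as triangles.

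Among the 40 genes with a promoter entry, the 15 with an E2F-type word in a promoter had a median log2 fold change of -1.28 and 13 of them were lower, while the 25 without had a median of -0.75 and 19 were lower. The spread was wide in both, from -2.51 (Mcm3) to 0.24 (Orc3) with a word and from -2.60 (Tk1) to 0.27 (Orc4) without. The windows printed above show the same, since Mcm5 and Orc3 both hold a word and lie far apart in fold change. CCAAT, the word of NF-Y, occurred in 51.0% of the 49 promoters against 37.4% of all, and the 23 genes that hold it had a median of -0.75 against -1.19 for the 17 that do not. The CHR-type words TTTGAA and TTCGAA occurred in 18.4% against 19.2%. The 8 genes that hold one had a median of -1.12, from -2.32 to -0.61, and 8 were lower. The 32 without had a median of -0.88, from -2.60 to 0.27, and 24 were lower. Missing words say only that these letters were not in the window.

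Levels and positions were also compared. Genes with lower Rnf40+/+ normalized counts tended to have larger falls (Spearman rho of 0.43 over the 48 genes, given as a description, since all values come from the same 6 libraries and counts also depend on gene length). The genes lay on 15 chromosomes of mm9, with 10 on chromosome 5, of which 6 were lower, and 6 on chromosome 8, of which 6 were lower. Among all 48 genes 39 were lower, against 24.1% of all genes tested. On chromosomes 7 and 11, with 4 members each, all 4 were lower too, so these counts do not set a chromosome apart.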

How the data were processed

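RNA was sequenced by the authors from MEFs of both genotypes with the NEXTflex Rapid Directional kit. Per the labels' processing notes, Bowtie2 (version 2.1.0), DESeq (version 1.14.0) and mm9 were used, and the counting tool and its use of the strand are not given in the sources used here. The deposited values are a normalized signal per gene, which the authors made by dividing reads by a DESeq size factor per library. Within a tolerance of 0.01, 100% of positive values came out as whole reads once divided by the step of their library, so reads were recovered, with size factors of 0.837 to 1.25. A floor of 3 reads is a normalized count of 2.40 to 3.58. Counting error aside, precision rests on 3 libraries per genotype.

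The filterByExpr function (edgeR version 4.0.16) on the recovered reads left 16378 of the 22545 genes with a read. These were tested for genotype, with no further term, by limma (version 3.58.1, lmFit and eBayes with trend), after the normalized count plus a pseudocount of 1 was put on the log2 scale. The added 1 understates fold changes of low genes. Fold changes are Rnf40-/- minus Rnf40+/+ on that log2 scale. The share of the level left is the ratio of mean normalized counts. Ratios of pairs used the same pseudocount and an exact permutation test (scipy, version 1.17.1). Ticrr is 5730590G19Rik and Primpol is Ccdc111 in the table. Of all symbols, 25 had been turned into dates or numbers and were left as they are.

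All 48 members are named, and in each role the members with the largest and smallest absolute log2 fold change, and those higher or not past the test, are given per library. The members and lists were chosen with earlier results of these data known. Promoter sequences and their coordinates are from RefSeq (GRCm38.p6), gene positions and exon lengths from GENCODE M1 (mm9), and no coordinates were converted. The design set the motif shares of members against genes tested, but only part of those had an entry, and all promoters of the table were used. Alternatives were other size factors, TMM and upper-quartile normalization, edgeR, DESeq2 (version 1.42.0), other filters and pseudocounts, a replicate block, the longest transcript as length and leaving out each library. The fits were also run on simulated data with far fewer changed genes than here, which checks the code and not these results. R (version 4.3.3), Python (version 3.11.15) and matplotlib (version 3.10.9) were used.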

Additional observations from a re-analysis of the deposited data

How the results depend on the processing

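Across 16 alternative fits, 44 of the 48 replication genes kept their direction and their side of the threshold, and 38 or 39 were lower. The exceptions in direction or call were Prim2 and Orc3 (values in the report), Orc2 and Rfc1, whose log2 fold changes ran from -0.092 to 0.031 and from -0.069 to 0.036 with a library left out and passed in no setting. Orc2 was above 0 without Rnf40+/+ replicate 2 or Rnf40-/- replicate 1, and Rfc1 without Rnf40+/+ replicate 2. With Orc3 past the threshold, 2 members were higher under TMM, edgeR and the replicate block, and 1 or 2 with a library left out. The median of the members was -0.97 with a pseudocount of 10 and -1.12 to -0.99 with a library left out. For the other replication factors these medians were -0.77 and -0.92 to -0.77, and 1 was higher without a filter and 1 or 2 with a library left out. Of the non-replicative counterparts, 1 to 3 were lower with a library left out, and their median ran from -0.020 to 0.046, below 0 without Rnf40+/+ replicate 2 or Rnf40-/- replicate 2. With a library left out, 3 of the pair ratios that overlapped changed sign: the change of Gmnn to Cdt1 ran from -0.35 to 0.048 (above 0 without Rnf40+/+ replicate 2), that of Dbf4 to Cdc7 from -0.10 to 0.33 (below 0 without Rnf40-/- replicate 3) and that of Pole to Pold1 from -0.25 to 0.082 (above 0 without Rnf40+/+ replicate 1 or Rnf40-/- replicate 3). The cause was not tested. Same-numbered libraries showed little shared deviation from their group means (correlations of 0.012, 0.017 and 0.021, against -0.053 to 0.037 for different numbers). The labels do not say whether the numbers pair libraries, and these values cannot settle it. The replicate block gave 4196 lower and 4021 higher genes in place of 3955 and 3809, with Orc3 past the threshold (adjusted p = 0.0301 from limma). ORC levels per length were taken over Orc2 to Orc6, without Orc1, and depended on the length used. By exon union the highest was 3.27 times the lowest in Rnf40+/+ and 1.91 times in Rnf40-/- MEFs. By longest transcript it was 2.05 and 2.09 times. With Orc1 these ratios may differ, which was not computed. Cdc6 in Rnf40-/- MEFs rested on as few as 14 reads.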
